A study of Mus musculus with 6 samples.

Results

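The genes described here encode effector proteins of macrophages and dendritic cells: surface and lysosomal proteins, scavenger and apoptotic cell receptors, complement C1q, matrix proteins, CC chemokines, lectins and maturation markers. They were chosen as a list of 35 gene symbols, and 34 of them were measured among the 18194 genes of the arrays. Clec9a was not analysed here. A gene takes its values from 1 probe set (a group of array probes summarised as 1 value), the one with the highest mean log2 intensity over the 6 arrays. RNA came from MLL-AF9 LGMP, mouse bone marrow cells sorted 6 days after the last of 2 tamoxifen injections (0.2 mg per g of body weight). The N1-IC group (3 samples, all female by the labels) had the genotype MLL-AF9 EF1α wt/lsl-N1-IC ROSA wt/CreERT2, and the WT group (3 samples, all male) had MLL-AF9 EF1α wt/wt ROSA wt/CreERT2. N1-IC stands for the intracellular domain of Notch1, a nuclear activator of transcription. Both groups therefore carried the MLL-AF9 leukaemia fusion, delivered by infection of cKit+ cells with a YFP marker, and the tamoxifen-dependent recombinase CreERT2 in the widely expressed ROSA locus, and both received tamoxifen. The cells had been transplanted 4 weeks before tamoxifen into lethally irradiated wild-type recipients aged 12 weeks, 50000 per mouse, together with 250000 wild-type support marrow cells. The number of recipients behind each sample is not in the labels, so the spread that the p-values rest on is that between samples and may be technical. Genotype and sex coincide and cannot be told apart. Of the 34 genes only Vsig4 lies on chromosome X and 0 lie on Y.

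Macrophages take up dead cells and debris through scavenger receptors and through receptors for exposed phosphatidylserine, they make the C1q chains that start the classical complement pathway, and they secrete chemokines that draw further leukocytes. Dendritic cells sample antigen through C-type lectins and, on maturation, display costimulatory proteins and the lymph node homing receptor Ccr7. The sorted cells were lineage-negative, CD34+, FcgRII/III+, cKit+, YFP+ and Sca1-, a gate used for granulocyte-macrophage progenitors. Such progenitors stand upstream of these cell types, and several of the genes are already transcribed in immature myeloid cells.

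The genes of the sort gate were read on the same arrays. Cd34 had 11.04, 10.05 and 11.28 log2 units on the N1-IC arrays and 11.69, 11.52 and 11.33 on the WT arrays. Every N1-IC array lay below every WT array, at a log2 fold change of -0.72 ± 0.32 (standard error; unadjusted limma p of 0.0654, adjusted p of 0.618). The part of this difference in the results below was not tested. The gate genes Kit, Fcgr3 and Fcgr2b had overlapping groups and lay at 10.23 to 13.12 on all 6 arrays. That is far above the array medians of 5.63 to 5.67. Ly6a, the gene of the excluded marker Sca1, was not analysed here. Libraries differed in markers of other cells. The mean of 13 late granulocyte genes was 10.14 to 10.58 on the N1-IC arrays, against 7.85, 10.39 and 10.02 in WT replicates 1, 2 and 3. Of these 13 genes 12 had a higher mean in N1-IC (92.3%, against 52.6% of all genes). Their median log2 fold change was 0.865. Mmp9, with the largest range of the list, had 8.59, 9.27 and 8.78 in N1-IC and 4.14, 7.36 and 7.01 in WT. Its groups did not overlap (2.71 ± 0.84; unadjusted limma p of 0.0173, adjusted p of 0.618). The mean of 10 erythroid genes was 5.79 to 6.69 on the N1-IC arrays, against 5.64, 9.89 and 6.90 in WT replicates 1, 2 and 3. Of these 10 genes 9 had a lower mean in N1-IC and 1 a higher mean (10%, against 52.6% of all genes). Their median log2 fold change was -0.87. The mean of 10 mast cell and basophil genes was 6.56, 7.85 and 8.04 in N1-IC replicates 1, 2 and 3, against 6.91, 8.15 and 6.60 in WT replicates 1, 2 and 3. Fcer1a, which encodes the ligand-binding chain of the IgE receptor, had 3.90, 7.95 and 6.68 in N1-IC and 2.94, 8.16 and 2.46 in WT. Epx of the same list had 6.13, 7.87 and 8.51 in N1-IC and 4.89, 9.02 and 6.46 in WT. Cpa3 differed, with 6.16, 8.43 and 7.85 in N1-IC and 8.98, 8.42 and 5.86 in WT, so that it was highest on WT replicate 1.

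None of the 34 genes passed the threshold of a Benjamini-Hochberg adjusted p under 0.05 in limma, where 0.00550% of all genes did (1 of 18194), and the smallest adjusted p among the 34 was 0.618. At an unadjusted p under 0.05 there were 5, or 14.7%, with the C1q genes C1qa, C1qb and C1qc and the mannose receptor gene Mrc1 higher and the chemokine gene Ccl6 lower in N1-IC. Over all genes 7.98% had such a p, 4.14% higher and 3.84% lower. The groups did not overlap, all 3 N1-IC arrays lying on one side of all 3 WT arrays, for 7 of the 34 genes (20.6%), 4 higher and 3 lower in N1-IC, against 14.8% of all genes (8.32% higher and 6.52% lower). With each array centred on its median, 10 genes did not overlap (29.4%), 8 higher and 2 lower, where 16.1% of all genes did not overlap and the median log2 fold change over all genes was 0.081. By group means N1-IC was higher for 13 genes (38.2%, against 52.6% of all genes) and lower for 21. The median log2 fold change was -0.11, where the median over all genes was 0.012. Without WT replicate 2 the split was 17 higher and 17 lower. The log2 fold change of 29 of the 34 genes moved by more than 1.5 times, or changed sign, when 1 array was left out. The other 5 were Ms4a6c, Mrc1, C1qb, Ccl6 and Cd209a. In bulk RNA, fewer cells of a type and less RNA per cell cannot be told apart, and on arrays whose distributions were made nearly equal a difference is relative to the other genes of the array.

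**Figure D1:**
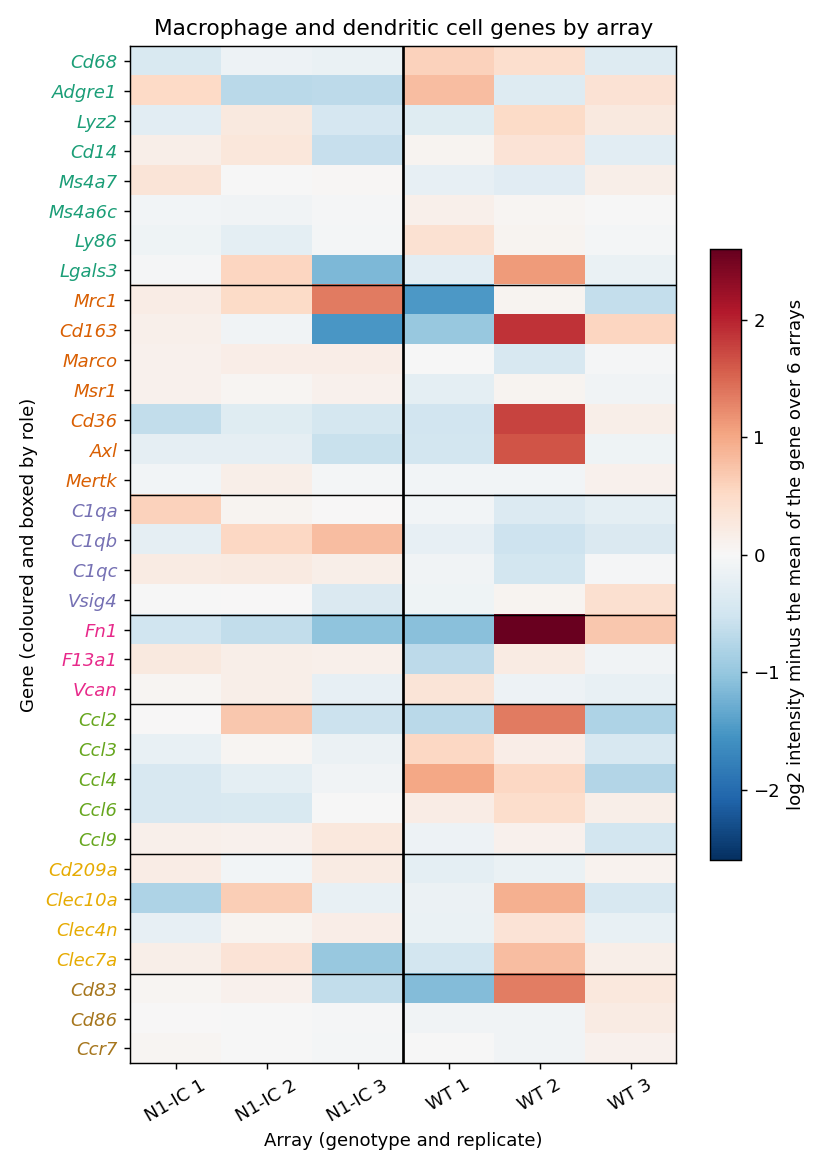
Heat map of the 34 genes (rows, boxed by role) on the 6 arrays (columns, N1-IC left of WT), coloured by log2 intensity minus the mean of the gene over the 6 arrays. C1qa and C1qc are redder on every N1-IC array than on any WT array, and Fn1, Cd36, Axl and Cd163 are deepest red on the array of WT replicate 2.

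Intensities placed the genes at very different heights relative to their arrays. For 15 genes every array lay above its own median, for 11 every array lay at or below it, and for 8 the arrays fell on both sides. Vsig4, Cd209a and Clec4n lay below the lower quartile of the array (3.86 to 3.92 log2 units) on all 6 arrays. No detection calls were used here, and it is unknown whether such low values exceed background. Within groups the genes varied more than the typical gene. Their median SD over 3 arrays was 0.193 in N1-IC and 0.311 in WT, where the medians over all genes were 0.137 and 0.169.

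The complement genes were examined first among the roles. C1qa, C1qb and C1qc encode the chains of C1q, which binds antibody complexes and dying cells, and they stand next to each other on chromosome 4 with 0 protein-coding genes between them. All 3 had a higher mean in N1-IC and an unadjusted p under 0.05, and each had its lowest value on the array of WT replicate 2. C1qa had 4.51, 3.97 and 3.91 log2 units on the N1-IC arrays, against 3.84, 3.54 and 3.65 on the WT arrays. Every N1-IC array lay above every WT array, at a log2 fold change of 0.45 ± 0.19 (standard error; unadjusted limma p of 0.0489, adjusted p of 0.618). C1qc had 4.42, 4.42 and 4.34 on the N1-IC arrays and 4.10, 3.72 and 4.17 on the WT arrays. Again the groups did not overlap, at 0.40 ± 0.14 (unadjusted limma p of 0.0268, adjusted p of 0.618). C1qb had 4.67, 5.46 and 5.72 on the N1-IC arrays and 4.70, 4.38 and 4.54 on the WT arrays, so N1-IC replicates 2 and 3 were high and replicate 1 lay within the WT range (0.74 ± 0.28; unadjusted limma p of 0.0343, adjusted p of 0.618). Among the N1-IC arrays the mast cell and basophil mean was also low in replicate 1 and high in replicates 2 and 3, while among the WT arrays it was highest in replicate 2, where C1qb was lowest. The part of those cells in the result was not tested. All of these values of C1qa and C1qc lay below the array medians. C1qa lay below the lower quartile of the array on all 3 WT arrays, and C1qc did on WT replicate 2. It is unknown whether such low values exceed background.

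The probe sets of C1qb differed in the size of the difference and in whether the groups overlapped. Its next brightest probe set had 4.11, 6.29 and 6.54 on the N1-IC arrays and 3.99, 3.19 and 3.85 on the WT arrays. There the groups did not overlap, and N1-IC replicates 2 and 3 stood more than 2 log2 units above replicate 1 (log2 fold change 1.97 ± 0.65; unadjusted limma p of 0.0226, adjusted p of 0.622 over the named probe sets). The dimmest probe set had 2.78, 3.35 and 3.76 on the N1-IC arrays and 3.04, 2.95 and 3.12 on the WT arrays, which overlapped. Its log2 fold change was 0.26 ± 0.25 (unadjusted limma p of 0.328, adjusted p of 0.750 over the named probe sets). Without WT replicate 2 the log2 fold changes were 0.39 for C1qa, 0.66 for C1qb and 0.26 for C1qc, and without WT replicate 1 they were 0.54, 0.83 and 0.45. Without N1-IC replicate 1 the log2 fold change of C1qa was 0.26 (unadjusted limma p of 0.0999, adjusted p of 0.807). Of the 6 fits with 1 array left out, the unadjusted p stayed under 0.05 in 2 for C1qa, 1 for C1qb and 4 for C1qc. Vsig4, which encodes a complement receptor of tissue macrophages, had 2.64, 2.65 and 2.26 in N1-IC and 2.53, 2.70 and 3.06 in WT, all below the lower quartile.

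**Figure D2:**
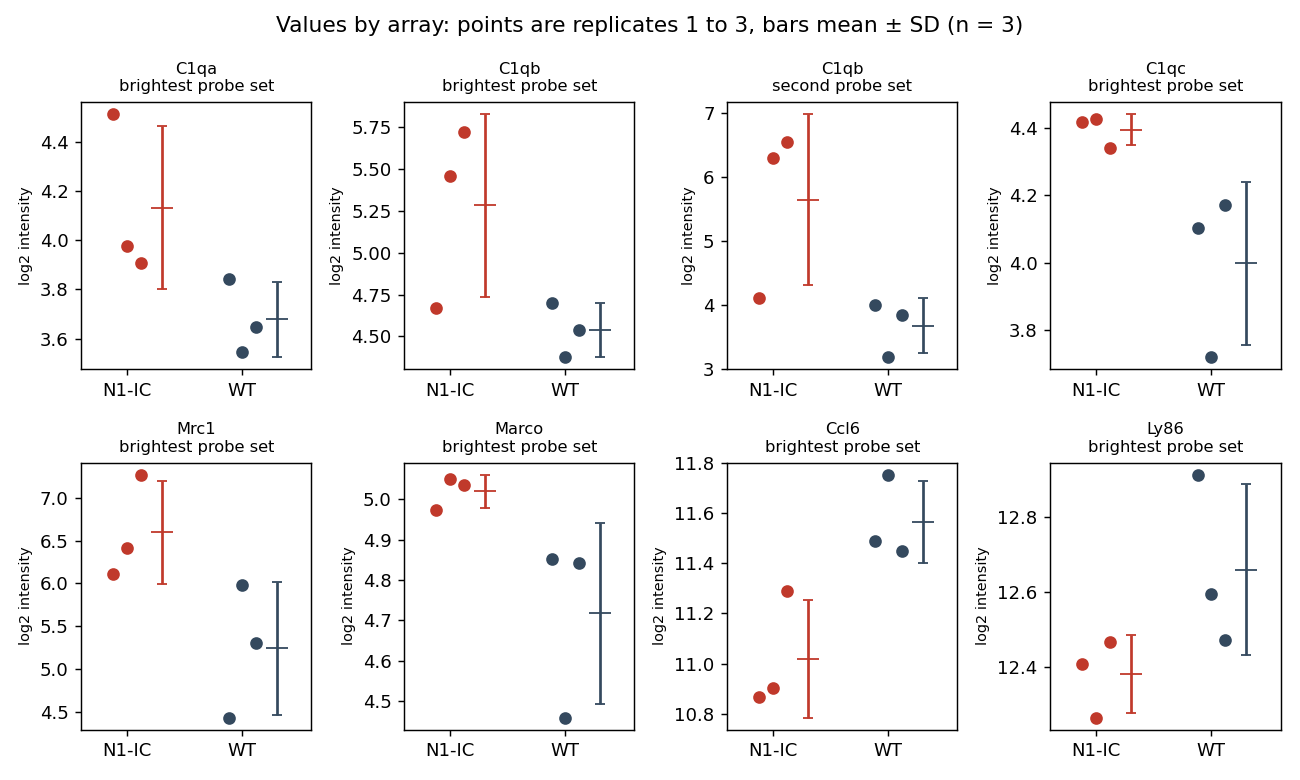
Log2 intensity (vertical axes, each panel with its own range that does not start at 0) of 7 genes on the N1-IC arrays (left) and the WT arrays (right), with C1qb shown by 2 probe sets. Points are replicates 1 to 3 and bars the mean ± SD (n = 3), and the groups overlap only in the panel of the brightest C1qb probe set.

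Stretches of 250 bases before the gene start are shown for 4 of the 5 genes with an unadjusted p under 0.05, because they are the genes whose arrays differed most relative to their spread. The remaining gene, C1qa, had no entry among the stretches available. They come from RefSeq, 5′ to 3′ on the strand of the gene, and capitals mark the core motif GAGGAA of PU.1, the myeloid transcription factor, on either strand (TTCCTC on the other). The core motif TGGGAA of RBPJ, the DNA-binding partner of the Notch intracellular domain, was searched in the same way (TTCCCA on the other strand).
C1qb, GRCm38.p6, chr4:136886201-136886450, minus strand: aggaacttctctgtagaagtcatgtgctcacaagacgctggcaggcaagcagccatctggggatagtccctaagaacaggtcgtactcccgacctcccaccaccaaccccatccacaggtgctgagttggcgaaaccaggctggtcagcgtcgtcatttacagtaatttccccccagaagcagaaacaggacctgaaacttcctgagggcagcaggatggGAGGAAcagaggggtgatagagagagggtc
C1qc, GRCm38.p6, chr4:136892915-136893164, minus strand: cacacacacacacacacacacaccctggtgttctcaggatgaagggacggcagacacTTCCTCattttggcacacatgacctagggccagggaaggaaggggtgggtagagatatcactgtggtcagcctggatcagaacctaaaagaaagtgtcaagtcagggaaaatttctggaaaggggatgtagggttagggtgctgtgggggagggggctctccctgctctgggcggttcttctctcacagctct
Mrc1, GRCm38.p6, chr2:14229164-14229413, plus strand: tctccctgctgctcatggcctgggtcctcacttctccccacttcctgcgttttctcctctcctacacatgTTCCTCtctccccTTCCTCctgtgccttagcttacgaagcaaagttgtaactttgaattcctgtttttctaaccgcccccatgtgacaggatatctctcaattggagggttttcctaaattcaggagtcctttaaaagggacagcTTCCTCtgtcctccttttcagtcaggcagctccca
Ccl6, GRCm38.p6, chr11:83593088-83593337, minus strand: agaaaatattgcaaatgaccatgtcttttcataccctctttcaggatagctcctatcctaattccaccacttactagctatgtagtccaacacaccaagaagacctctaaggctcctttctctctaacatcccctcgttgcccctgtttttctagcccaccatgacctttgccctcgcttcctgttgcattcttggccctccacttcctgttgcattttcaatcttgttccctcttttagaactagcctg
The C1qb and C1qc stretches each held 1 PU.1 core motif, that of Mrc1 held 3 and that of Ccl6 held 0, and none of the 4 held the RBPJ core motif. The 2 motifs did not overlap in these stretches, since only PU.1 matches were present. Of the 34 genes, 22 had 25 such stretches in the table. The PU.1 core was present in 11 of the 25 (44.0%), against 23.3% of all 32851 stretches, and the RBPJ core in 8 of the 25 (32.0%), against 21.6%. Such matches are a description of letters and not of binding.

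Scavenger and apoptotic cell receptors went in both directions, with 4 of 7 higher and 3 lower by group means and a median log2 fold change of 0.021. Mrc1, which encodes the mannose receptor of macrophages and immature dendritic cells, had 6.11, 6.41 and 7.27 log2 units in N1-IC and 4.43, 5.99 and 5.31 in WT. Every N1-IC array lay above every WT array, and WT replicate 1 was the lowest. The log2 fold change was 1.36 ± 0.46, the largest positive one of the 34 (unadjusted limma p of 0.0255, adjusted p of 0.618), and it was 0.95 without WT replicate 1 and 1.73 without WT replicate 2. The unadjusted p stayed under 0.05 in 3 of the 6 fits with 1 array left out. WT replicate 1 was also the array with the low late granulocyte mean, and the part of that difference in the result was not tested. Marco, a bacterial scavenger receptor gene, had 4.97, 5.05 and 5.04 in N1-IC and 4.85, 4.46 and 4.84 in WT. Its groups did not overlap (0.30 ± 0.13; unadjusted limma p of 0.0576, adjusted p of 0.618), but the values of its other probe set did overlap, and the log2 fold change was 0.17 without WT replicate 2.

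Cd163, the haemoglobin scavenger receptor gene, Cd36, a receptor for oxidised lipids, and Axl, a receptor tyrosine kinase for apoptotic cells, had lower means in N1-IC, and 1 WT array stood far above the others for each. Cd163 had 6.04, 5.81 and 4.40 in N1-IC and 4.92, 7.79 and 6.46 in WT, with a log2 fold change of -0.97 ± 0.79. Cd36 had 3.45, 3.77 and 3.64 in N1-IC and 3.59, 5.84 and 4.24 in WT (-0.94 ± 0.55). Axl had 4.57, 4.57 and 4.24 in N1-IC and 4.32, 6.45 and 4.70 in WT (-0.70 ± 0.54). All 3 genes were highest on the array of WT replicate 2, and without it their log2 fold changes were -0.28, -0.30 and -0.05. Without WT replicate 1 they were -1.71, -1.42 and -1.11. With the probe sets of a gene averaged, Cd36 had -0.59 and Axl -0.46. Without N1-IC replicate 3, the lowest array for Cd163, that gene had -0.46. Msr1, another scavenger receptor gene, and Mertk, a relative of Axl, had values of 5.38 to 5.75 and 4.08 to 4.32 over the 6 arrays, with log2 fold changes of 0.18 and 0.021. The probe sets of Msr1 disagreed in sign, and its log2 fold change was 0.099 without WT replicate 1.

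Among matrix and coagulation genes the fibronectin gene Fn1 showed the same array. It had 6.08, 5.95 and 5.55 in N1-IC and 5.50, 9.15 and 7.29 in WT, so WT replicates 2 and 3 were high and replicate 1 was the lowest of all arrays. The log2 fold change of -1.45 ± 0.86 (unadjusted limma p of 0.141, adjusted p of 0.649) was -0.53 without WT replicate 2 and -2.36 without WT replicate 1, and -0.87 with its probe sets averaged. F13a1, which encodes a chain of coagulation factor XIII made by monocytes, had 12.69, 12.60 and 12.58 in N1-IC and 11.75, 12.65 and 12.35 in WT. WT replicate 1 was low and WT replicate 2 lay within the N1-IC range (0.37 ± 0.23; unadjusted limma p of 0.153, adjusted p of 0.655). Without WT replicate 1 the log2 fold change was 0.12, and without WT replicate 2 it was 0.57. The proteoglycan gene Vcan had 8 probe sets, disagreed in sign among them and had values of 4.81 to 5.19 in N1-IC and 4.84 to 5.37 in WT, with a log2 fold change of -0.01.

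WT replicate 2 had the highest value of the 6 arrays for 13 of the 34 genes (38.2%), against 18.9% of all genes. For 5 of them, Fn1, Axl, Cd36, Cd163 and Cd83, it exceeded the next highest array by more than 1 log2 unit, which is 14.7% of the 34 genes and 0.973% of all genes. No other array exceeded the next highest by that much for any of the 34. This is the array on which erythroid genes were high: Rhag, a red cell membrane protein gene, had 2.67 to 2.91 on the N1-IC arrays, against 2.48, 9.17 and 4.80 in WT replicates 1, 2 and 3. Car1, the erythrocyte carbonic anhydrase gene, had 4.61 to 6.88 in N1-IC, against 4.37, 12.44 and 8.64 in WT replicates 1, 2 and 3. WT replicate 2 was also the highest array for the mast cell and basophil mean, at 8.15 against 8.04 in N1-IC replicate 3. The mean of 10 T and B lymphoid genes was 5.80 there, against 5.53 to 5.63 on the other arrays. Of these, Cd3d had 6.19 there and 4.10 to 4.89 on the other arrays. The part of erythroid or other cells in the values of the 5 genes was not tested. In the same array C1qa, C1qb and C1qc were at their lowest.

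**Figure D3:**
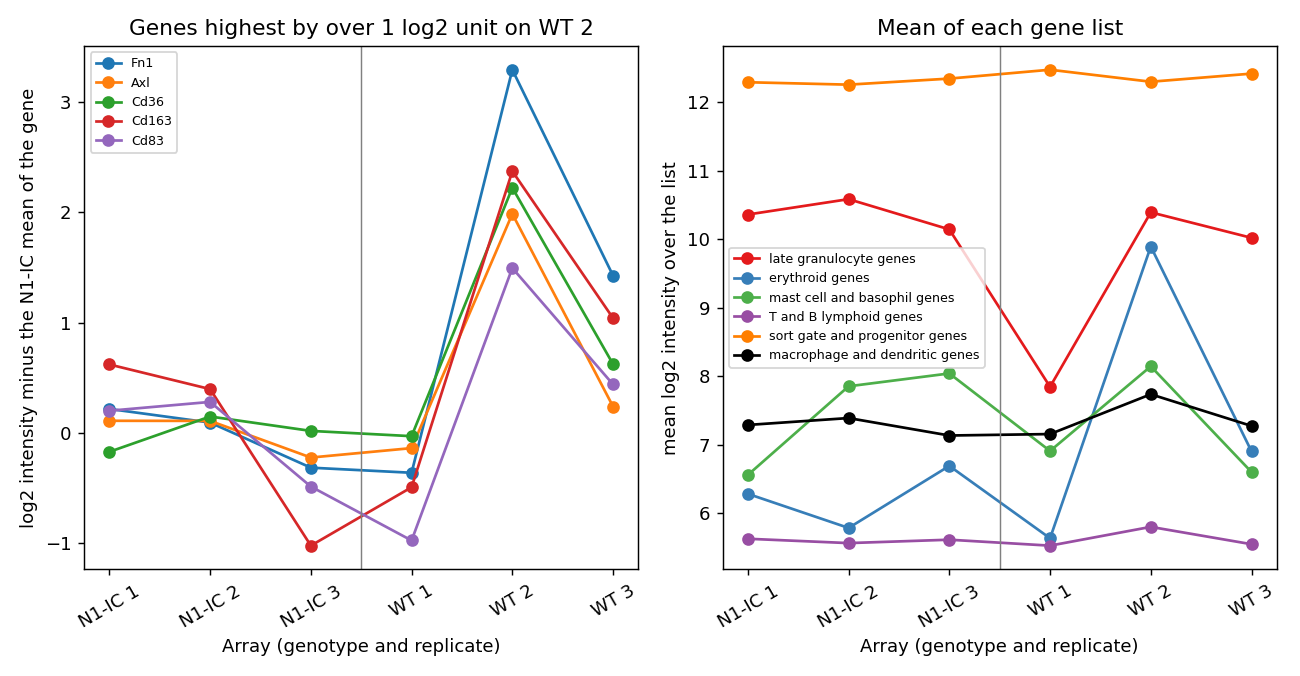
Left, log2 intensity minus the N1-IC mean of the gene (vertical axis) for the 5 genes that exceed every other array by more than 1 log2 unit on WT replicate 2. Right, mean log2 intensity (vertical axis) of marker lists and of the 34 genes on the same arrays (horizontal axis, N1-IC left of WT): the erythroid mean reaches 9.89 on WT replicate 2 and the late granulocyte mean drops to 7.85 on WT replicate 1.

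Macrophage surface and lysosome genes had lower means in N1-IC for 7 of 8 members, with a median log2 fold change of -0.29. Higher means were found for 12.5% of them, against 52.6% of all genes, and none of the 8 had an unadjusted p under 0.05. Ly86, which encodes MD-1, the partner of the receptor Cd180, had 12.41, 12.27 and 12.47 in N1-IC and 12.91, 12.59 and 12.47 in WT. Its groups did not overlap, although the highest N1-IC array and the lowest WT array were equal to 2 decimals (-0.28 ± 0.14; unadjusted limma p of 0.0889, adjusted p of 0.629), and the log2 fold change was -0.15 without WT replicate 1. Ms4a6c, a membrane-spanning protein gene of monocytes, had 12.54, 12.52 and 12.58 in N1-IC and 12.74, 12.65 and 12.60 in WT, which did not overlap at a log2 fold change of -0.12 ± 0.08. Its dimmer probe set overlapped, and the mean of both gave -0.41. The lysosomal glycoprotein gene Cd68 had 10.75, 11.01 and 10.98 in N1-IC and 11.74, 11.57 and 10.81 in WT. WT replicate 3 lay within the N1-IC range, and the log2 fold change of -0.46 ± 0.25 was -0.74 without that array (unadjusted limma p of 0.00214, adjusted p of 0.294) and -0.28 without WT replicate 1 (unadjusted limma p of 0.305, adjusted p of 0.800).

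Adgre1, which encodes F4/80, had 10.27, 9.05 and 9.06 in N1-IC and 10.54, 9.41 and 10.13 in WT, and the groups overlapped (-0.57 ± 0.43). The log2 fold change was -0.97 without N1-IC replicate 1, whose value was the highest in N1-IC, and -0.31 without WT replicate 1. The lysozyme gene Lyz2, the galectin gene Lgals3 and the lipopolysaccharide co-receptor gene Cd14 had log2 fold changes of -0.30, -0.44 and -0.11, with overlapping groups. Lyz2 lay at 12.56 to 13.24 in N1-IC and 12.68 to 13.49 in WT, and its log2 fold change ran from -0.53 to -0.13 with 1 array left out. Lgals3 lay at 9.16 to 10.88 in N1-IC and 10.05 to 11.44 in WT, and Cd14 at 9.31 to 10.20 in N1-IC and 9.64 to 10.27 in WT. All 3 had their highest value on WT replicate 2 and their lowest on N1-IC replicate 3. Ms4a7, a relative of Ms4a6c, was the only one of the 8 with a higher mean in N1-IC (0.24 ± 0.16, and 0.13 to 0.37 with 1 array left out), and its values of 3.53 to 4.15 lay near the lower quartile of the arrays.

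**Figure D4:**
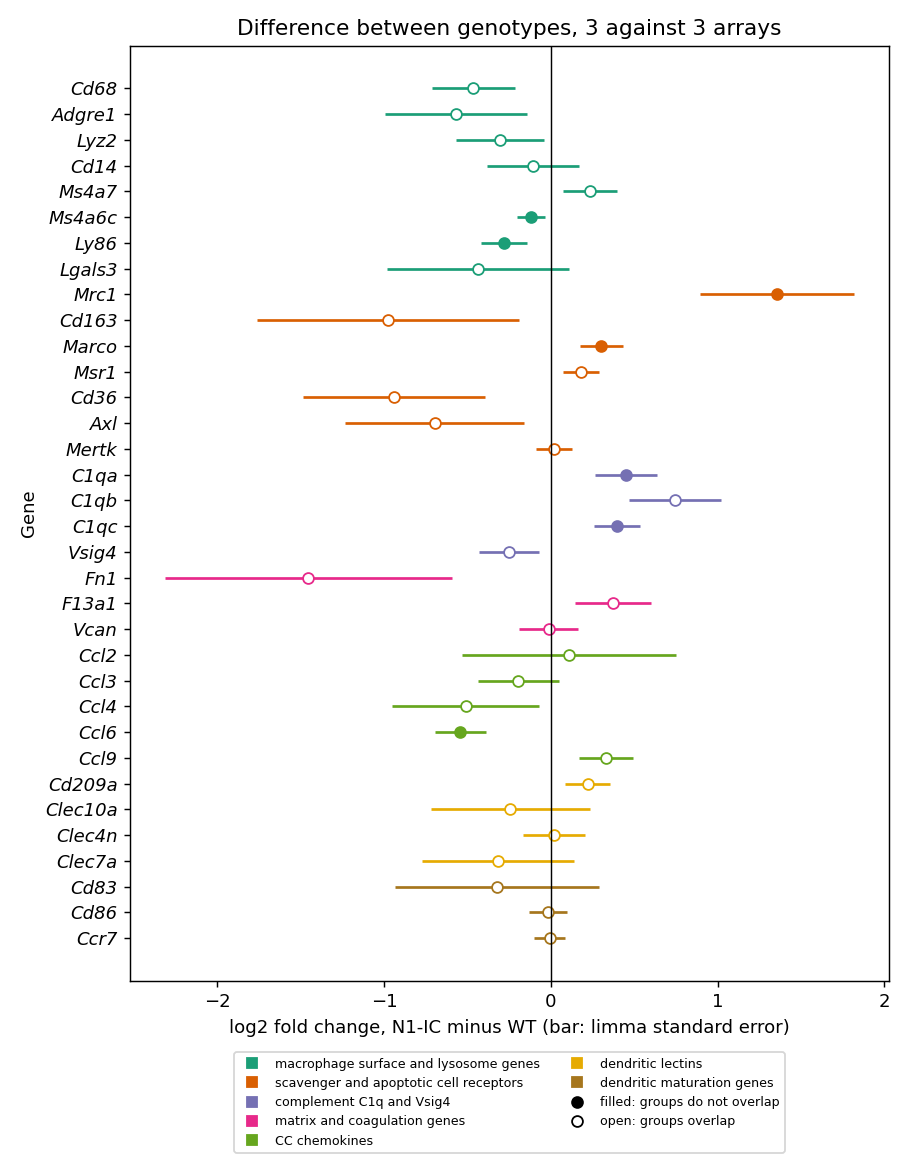
Log2 fold change of N1-IC minus WT (horizontal axis, bars are limma standard errors) for the 34 genes (vertical axis, coloured by role). Filled points mark the 7 genes whose groups do not overlap, with Mrc1 at 1.36 farthest right and Ccl6 at -0.54 farthest left of the filled points.

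The CC chemokine genes differed among themselves. Ccl6, Ccl9, Ccl3 and Ccl4 lie side by side on chromosome 11. Ccl6, a chemokine of mouse myeloid cells, had 10.87, 10.90 and 11.29 log2 units in N1-IC and 11.49, 11.75 and 11.45 in WT. Every N1-IC array lay below every WT array, at -0.54 ± 0.15, the smallest unadjusted p of the 34 genes (unadjusted limma p of 0.0115, adjusted p of 0.618). Its other probe set did the same, with 9.06, 9.13 and 9.52 in N1-IC and 9.55, 9.92 and 9.93 in WT (-0.56 ± 0.17). Leaving out any 1 array gave -0.68 to -0.45.

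Its neighbour Ccl9, which like Ccl6 signals through Ccr1 in mice, differed the other way. Ccl9 had 12.95, 12.92 and 13.08 in N1-IC and 12.70, 12.93 and 12.34 in WT, where WT replicate 2 overlapped (0.33 ± 0.16; unadjusted limma p of 0.0844, adjusted p of 0.624). By its other probe set the log2 fold change was 0.59 ± 0.24. Without WT replicate 3, the lowest array, that of the brightest probe set was 0.17. Ccl3 and Ccl4, inflammatory chemokines also known as MIP-1α and MIP-1β, had 12.54, 12.79 and 12.58 and 10.03, 10.19 and 10.37 in N1-IC. In WT they had 13.27, 12.90 and 12.32 and 11.46, 10.98 and 9.68, so WT replicate 3 was the lowest array and WT replicate 1 the highest for both. The log2 fold changes were -0.19 ± 0.24 and -0.51 ± 0.44. Without WT replicate 1 they were 0.027 and -0.14, and without WT replicate 3 they were -0.45 and -1.02. For Ccl4 that last value had an unadjusted limma p of 0.00281 and an adjusted p of 0.294. The monocyte attractant gene Ccl2 had 6.71, 7.40 and 6.13 in N1-IC and 5.99, 8.04 and 5.89 in WT, without separation (0.11 ± 0.64).

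Dendritic lectin and maturation genes did not separate the groups. Clec10a, a galactose-binding lectin gene, had 7.01, 8.45 and 7.62 in N1-IC and 7.66, 8.73 and 7.41 in WT (-0.24 ± 0.48). Clec7a, which encodes the fungal glucan receptor dectin-1, had 9.78, 9.99 and 8.65 in N1-IC and 9.15, 10.43 and 9.79 in WT (-0.32 ± 0.45). Their ranges over the 6 arrays were 1.73 and 1.78 log2 units, and WT replicate 2 was the highest for both. Cd209a and Clec4n, lectins of the DC-SIGN and dectin-2 kind, lay at 2.98 to 3.45 and 3.25 to 3.81. The maturation gene Cd83 had 5.37, 5.45 and 4.69 in N1-IC and 4.20, 6.67 and 5.61 in WT (-0.32 ± 0.61), and its log2 fold change was 0.27 without WT replicate 2. The costimulatory gene Cd86 and the homing receptor gene Ccr7 lay at 3.65 to 3.97 and 3.77 to 3.99, with log2 fold changes of -0.02 and -0.01. A second, dimmer probe set of Cd86 had 3.11 to 3.47 in N1-IC and 3.19, 5.15 and 3.67 in WT.

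Partner genes were taken from 6 further lists with 84 measured members, of which 0 passed over all genes. By group means 57 of the 84 were higher (67.9%), against 52.6% of all genes. At an unadjusted p under 0.05 there were 5 higher and 6 lower, 13.1% of the 84, against 7.98% of all genes. The groups of 16 did not overlap (19.0%), against 14.8% of all genes. The chemokine receptor gene Ccr1 had 6.30, 6.31 and 5.78 in N1-IC and 8.09, 7.21 and 6.90 in WT. Every N1-IC array lay below every WT array (-1.27 ± 0.33; unadjusted limma p of 0.00772, adjusted p of 0.618). In the list of other chemokines and their receptors 13 of 15 had a higher mean (86.7%, against 52.6% of all genes). At an unadjusted p under 0.05 there were 0 higher and 1 lower. Cxcl10, an interferon-induced chemokine gene, and Ccl5, a T cell and platelet chemokine gene, had log2 fold changes of 0.84 and -0.65. That of Cxcl10 was 0.49 without N1-IC replicate 2, its highest array, and that of Ccl5 was -0.37 without WT replicate 1, its highest array.

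Of other complement genes and receptors 7 of 13 were higher by group means, with 1 higher and 1 lower at an unadjusted p under 0.05. C1ra, whose protein is the protease that associates with C1q, had 5.56, 5.48 and 6.64 in N1-IC and 6.93, 6.61 and 6.99 in WT (-0.95 ± 0.32; unadjusted limma p of 0.0257, adjusted p of 0.618). The subunit genes of complement receptors 3 and 4, Itgam and Itgax, had 0.25 ± 0.10 and 0.73 ± 0.33, and for both every N1-IC array lay above every WT array. For Itgam the separation was narrow, with 7.14 in N1-IC replicate 3 and 7.12 in WT replicate 2. Itgax had 5.34, 5.32 and 6.38 in N1-IC and 4.86, 5.31 and 4.68 in WT, so N1-IC replicate 3 stood apart, and without it the log2 fold change was 0.38. Among lipopolysaccharide and monocyte receptor partners 13 of 14 were higher (92.9%, against 52.6% of all genes), with a median of 0.13. At that p there were 2 higher and 0 lower (14.3%, against 7.98% of all genes). The adaptor genes Myd88 and Tirap and the receptor gene Tlr2 had 0.33 ± 0.12, 0.49 ± 0.18 and 0.32 ± 0.13 without overlap of the groups, while Cd14 had -0.11. The separation was narrow for Tirap (10.55 in N1-IC replicate 3 against 10.54 in WT replicate 2). It was also narrow for Tlr2 (8.49 in N1-IC replicate 1 against 8.48 in WT replicate 2). Tirap had 2 probe sets, and their average gave 0.22 (unadjusted limma p of 0.328, adjusted p of 0.754).

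Other myeloid lectins had 9 of 12 members higher (75%, against 52.6% of all genes). At an unadjusted p under 0.05 there were 2 higher and 1 lower (25%, against 7.98% of all genes). Clec5a, a receptor of myeloid cells that signals through Dap12, had 9.63, 10.32 and 9.75 in N1-IC and 6.44, 9.40 and 8.11 in WT. The groups did not overlap, and WT replicate 1, with the low granulocyte mean, was lowest (1.92 ± 0.71; unadjusted limma p of 0.0348, adjusted p of 0.618). Without that array the log2 fold change was 1.15. Clec1b had 0.60 ± 0.16 and Clec2d -0.67 ± 0.19. Clec2d lay at 8.54 to 9.73, but Clec1b lay at 3.51 to 4.48, below the array median on all 6 arrays. On the 3 WT arrays Clec1b lay below the lower quartile, where it is unknown whether values exceed background. Other scavenger and apoptotic cell uptake genes had 8 of 16 higher, with 0 higher and 1 lower at that p. Mfge8, which bridges apoptotic cells to phagocytes, had 6.84, 6.81 and 6.87 in N1-IC and 8.28, 8.17 and 7.05 in WT, without overlap (-0.996 ± 0.33). Scarb1 and Gas6 had -0.22 and 0.19, with -0.06 for Scarb1 without WT replicate 2 and 0.061 for Gas6 without WT replicate 1. Other dendritic cell genes had 7 of 14 higher, with 0 higher and 2 lower at that p: the transcription factor gene Irf4 had -1.11 ± 0.34 (-0.55 with its 2 probe sets averaged) and Bst2, a marker of plasmacytoid dendritic cells, -0.38 ± 0.16. Irf8, which directs monocyte and dendritic development, had -0.48 ± 0.21.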

How the data were processed

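The authors deposited 1 intensity per probe set and array on a linear scale, processed with RMA per the submitters' processing notes (version not given in the sources used here). Per the labels' protocols, 5 ng of total RNA was amplified by NuGEN Ovation and put on Affymetrix arrays. Intensities ran from 3.60 to 24044 and sorted arrays lay within 0.103 log2 units of the mean array. Log2 was taken with no offset. The platform annotation gave 1 symbol to 34958 of the 45101 probe sets, several to 932 and none to 9211. The brightest probe set per symbol gave 18194 genes, all fitted in R 4.3.3 with limma 3.58.1 (lmFit, eBayes, N1-IC minus WT, Benjamini-Hochberg adjustment). On simulated arrays with 200 changed genes among 18194 the fit recovered 88.2% of changes of 2 and 96.8% of changes of -4 log2 units. The simulated noise was normal and independent between genes and arrays. It held no shift shared by many genes of 1 array, such as that of the erythroid genes on WT replicate 2. Recovery of smaller changes is not known from these runs. The largest log2 fold change of the effector genes in either direction was smaller, at -1.45 for Fn1. The rates therefore cannot tell how often changes of the size seen in these genes would be missed. The number of arrays limits the precision. The members and lists were chosen with earlier results of these data known. All measured members are named, with up to 3 genes per other list by smallest p and the measured gate genes. Named genes of the marker lists come from the 3 with the largest range in each list, and not all of those are named. The labels do not say whether the replicate numbers pair samples. Same-numbered samples of the groups correlated at 0.009, 0.061 and -0.11 in their deviations over all genes. Such values cannot exclude a pairing that affects some genes. Chromosomes and promoters are those of RefSeq GRCm38.p6. No batch was used.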

Additional observations from a re-analysis of the deposited data

How the results depend on the processing

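Of 15 alternatives to the limma fit, including a threshold of 0.1, none called any of the 34 genes, and the smallest adjusted p in any was 0.294. The count at an unadjusted p under 0.05 was 5 in the reported fit, where 7.98% of all genes had such a p. It was 3 with array weights, where 8.16% of all genes did. A filter at the median level kept 14 of the genes, and the count there was 1, where 9.18% of all genes kept did. With 1 array left out it was 2 to 8. The highest count came without WT replicate 3, where 13.4% of all genes had such a p. The lowest came without N1-IC replicate 2, where 5.18% did. The count of genes whose groups do not overlap, 7 as reported, was 3 under that filter (21.4%, against 15.7% of all genes kept). It was 7 to 15 with 1 array left out. The highest count came without WT replicate 1 (44.1%), where 23.5% of all genes did not overlap. It was 11 (32.4%) without WT replicate 2 and 13 (38.2%) without WT replicate 3, where 22.8% and 34.1% of all genes did not overlap. The median log2 fold change was -0.22 to 0.0048 with 1 array left out. With the replicate number as a block the count at an unadjusted p under 0.05 was 5, where 6.39% of all genes had such a p. There 0 genes passed, but Adgre1 (unadjusted limma p of 0.0406, adjusted p of 0.727) stood in place of C1qb (unadjusted limma p of 0.0523).

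The sign held for 21 genes in every alternative run. With 1 array left out it turned for 12, whose log2 fold changes ranged from -0.28 to 0.17 for Cd14, -0.82 to 0.039 for Lgals3, -0.053 to 0.077 for Mertk, -0.11 to 0.15 for Vcan, -0.27 to 0.81 for Ccl2, -0.45 to 0.027 for Ccl3, -0.62 to 0.16 for Clec10a, -0.076 to 0.196 for Clec4n, -0.64 to 0.096 for Clec7a, -0.97 to 0.27 for Cd83, -0.0701 to 0.0900 for Cd86 and -0.0561 to 0.0499 for Ccr7. With probe sets of a gene averaged Msr1 had -0.012 and Vcan 0.026. With repeated quantile normalization Mertk had -0.037 and Clec4n -0.011, and with array weights Clec4n had -0.00035. With arrays centred on their medians Vcan had 0.058, Cd86 0.054 and Ccr7 0.064. The cause was not tested.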
